A study of Mus musculus with 6 samples.

Results

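The Krüppel-like factors (KLF) are zinc-finger transcription factors, and 10 of them were followed here across 3 populations of mouse lung epithelial cells: Klf2, Klf3, Klf4, Klf5, Klf6, Klf7, Klf9, Klf10, Klf13 and Klf15. The members are the rows of the deposited table that carry these gene names, 10 of 22239 genes, and all 10 were among the 17721 genes with enough signal to test. Bulk RNA was sequenced from cells of mice aged 8 weeks, sorted by fluorescent reporters after endothelial and blood cells had been depleted from the lung with CD31 and CD45. Bronchioalveolar stem cells (BASC) were CCSP-mCherry+/SPC-YFP+, carrying the reporter of the club cell gene Scgb1a1 and that of the surfactant gene Sftpc. Alveolar type 2 (AT2) cells were SPC-YFP+ and Club cells, which secrete protective proteins in the bronchioles, were CCSP-mCherry+. Each population had 2 samples, the labels name no treatment beyond the isolation, and the strain, the sex, the number of animals behind a sample and whether replicates came from separate animals are not stated in the sources read here, so the p-values measure the spread between these samples, which may be technical.

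Values are normalised read counts, the number of reads assigned to a gene after scaling between samples. The samples held an estimated 10122640 to 18205636 reads over the genes of the table, and 3 reads, taken as the upper limit of an observed 0, corresponded to 2.29 to 4.02 normalised counts. The sorted populations carried their markers: 10 AT2 markers summed to between 1004043 and 1183776 normalised counts in the BASC and AT2 samples and to 89972 and 109546 in Club cells, and 10 Club markers to between 1189285 and 1204205 in Club cells, 103067 and 126401 in BASC, and 19203 and 22001 in AT2 cells. Markers of ciliated cells also moved with the Club group. The 8 genes summed to 7554 and 7381 in Club cells and to between 787 and 1091 in the other samples, and Foxj1, the ciliated cell regulator, stood at 795 and 825 in Club cells and between 40 and 115 elsewhere. AT1 markers, for the flat cells of the alveolar wall, went both ways. The 9 genes summed to 9885 and 11284 in Club cells and to between 16849 and 18846 in BASC and AT2 cells, a difference carried by Ager, at 1390 and 1762 against 8105 to 9791. Pdpn and Clic5 had their highest values in Club cells, Pdpn at 561 and 457 against 0 to 17 elsewhere. In BASC against Club cells 2 of the 9 were called higher and 1 lower, where 5.77% and 5.42% of all genes were. In AT2 against Club cells 3 were called higher and 2 lower, where 8.42% and 9.71% of all genes were. The part of these cells in the differences from Club cells given below was not tested, and in bulk samples fewer cells of a type and less RNA per cell cannot be told apart.

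KLF proteins bind CACCC elements and related GC-rich sites through 3 zinc fingers at their carboxyl end, and differ in the amino-terminal domains that recruit coactivators or corepressors. Klf2, Klf4, Klf5, Klf6 and Klf7 are mostly known as activators, Klf3 as a repressor that works through the C-terminal binding proteins, and Klf9, Klf10 and Klf13 as repressors that work through Sin3. In the lung, Klf2 is best known from endothelium, and Klf5 from the maturation of alveolar and airway epithelium. Several members are induced quickly by serum, stress or shear, and the promoters of these genes are GC rich.

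The promoters of Klf2, Klf4 and Klf6 are shown because these 3 genes had the highest levels per transcript length in BASC. Each sequence is the 250 bases before the transcription start, from RefSeq on GRCm38.p6, at chr8:72318812-72319061 on the plus strand for Klf2, chr4:55532476-55532725 on the minus strand for Klf4 and chr13:5861239-5861488 on the plus strand for Klf6. Capitals mark the matches of the motifs named below on either strand, and matches that overlap run together.
Klf2: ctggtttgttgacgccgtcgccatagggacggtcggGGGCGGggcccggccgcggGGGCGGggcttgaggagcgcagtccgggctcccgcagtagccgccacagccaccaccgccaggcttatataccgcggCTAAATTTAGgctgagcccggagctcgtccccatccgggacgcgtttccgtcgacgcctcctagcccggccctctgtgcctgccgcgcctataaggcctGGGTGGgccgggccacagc
Klf4: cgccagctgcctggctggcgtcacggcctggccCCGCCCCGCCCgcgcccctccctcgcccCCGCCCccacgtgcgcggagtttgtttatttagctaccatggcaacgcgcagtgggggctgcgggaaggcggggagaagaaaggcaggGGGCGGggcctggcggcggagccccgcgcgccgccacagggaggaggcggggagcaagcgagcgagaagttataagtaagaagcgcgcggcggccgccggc
Klf6: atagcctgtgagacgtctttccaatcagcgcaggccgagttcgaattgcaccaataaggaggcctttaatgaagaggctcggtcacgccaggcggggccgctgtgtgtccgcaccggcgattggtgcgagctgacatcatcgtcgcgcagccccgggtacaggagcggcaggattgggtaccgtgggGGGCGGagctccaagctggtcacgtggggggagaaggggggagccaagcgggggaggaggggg
The windows of Klf2, Klf4 and Klf6 had a GC content of 71.2%, 74.0% and 64.8%, against a median of 52.4% over 32851 promoters. The GC box GGGCGG, a binding site of SP and KLF proteins, occurred in 32.7% of all promoters and in 7 of the 8 members with a RefSeq entry, all but Klf9. Klf4 held 4 matches, of which the 2 farthest from the start share a base, Klf2 held 2, and Klf6 held 1. The CACCC element CCACCC occurred in 28.1% of all promoters and in 4 of 8 members, Klf2, Klf3, Klf7 and Klf13. A MEF2 site, the motif through which ERK5 signalling is known to act on Klf2, occurred in 1.69% of all promoters and among the members in Klf2 alone, 118 to 109 bases before the start. The cyclic AMP response element TGACGTCA and the CArG box, the site of serum response factor, were found in 1.55% and 1.47% of promoters and in 0 of the 8 members. Klf5 and Klf10 were not matched.

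Klf2, known for quiescence of endothelium and T cells, was highest in BASC and lowest in Club cells. Its normalised counts were 1786 and 2167 in BASC, 879 and 1354 in AT2 cells and 568 and 770 in Club cells. The samples of no group overlapped with those of another. The level in BASC was 2.95 times that in Club cells (log2 fold change 1.57 ± 0.26 SE, limma, adjusted p = 0.00957), which passed the threshold of 0.05 that counts as a call here. This call was lost without BASC replicate 1 (adjusted p = 0.0601), without BASC replicate 2 (0.0884) and when the variance model had no trend with expression (0.0917). BASC stood 1.77 times above AT2 cells (0.85 ± 0.26, adjusted p = 0.214) and AT2 cells 1.67 times above Club cells (0.72 ± 0.26, adjusted p = 0.100), and neither difference passed. Against the midpoint of AT2 and Club cells, BASC was higher by 1.21 ± 0.22 on the log2 scale, just outside the threshold (adjusted p = 0.0516), and 8 of 16 alternative analyses put it inside, with adjusted p from 0.00901 to 0.310. Klf2 (ENSMUSG00000055148) lies at chr8:72319033-72321656 on the plus strand.

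Klf4, a factor of epithelial differentiation and growth arrest, had 3151 and 4232 normalised counts in BASC, 1853 and 2758 in AT2 cells and 2406 and 1793 in Club cells. Both BASC samples were above all 4 others, while AT2 and Club cells overlapped. The mean in BASC was 1.60 times that in AT2 cells (log2 fold change 0.69 ± 0.25 SE, adjusted p = 0.291) and 1.76 times that in Club cells (0.81 ± 0.25, adjusted p = 0.0835), and neither difference passed the test. With genes under 50 normalised counts left out, Klf4 passed against Club cells (adjusted p = 0.042). The gene (ENSMUSG00000003032) lies at chr4:55527143-55532466 on the minus strand.

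Klf6, a ubiquitous factor known from injury responses, had the highest level per exon length of the 10 members in each population. It stood at 6794 and 8690 normalised counts in BASC, 3924 and 5342 in AT2 cells and 6163 and 6871 in Club cells. The AT2 samples lay below all 4 others, and BASC and Club cells overlapped. BASC was 1.67 times above AT2 cells (log2 fold change 0.75 ± 0.18 SE, adjusted p = 0.144) and Club cells 1.41 times above AT2 cells (-0.51 ± 0.18 for AT2 minus Club, adjusted p = 0.105), neither of which passed. After quantile normalization the second of these passed (adjusted p = 0.0181). BASC and Club cells differed by 0.24 on the log2 scale, with a 95% interval from -0.19 to 0.67. Klf6 (ENSMUSG00000000078) lies at chr13:5861482-5870394 on the plus strand.

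Klf7, known from neuronal development, had the lowest level per exon length. Its normalised counts were 237 and 302 in BASC, 194 and 214 in AT2 cells and 272 and 77 in Club cells. The BASC samples lay above the AT2 samples, but the Club replicates differed 3.53-fold and spanned the AT2 range. The 95% interval of the difference between BASC and AT2 cells ran from -0.95 to 1.73 on the log2 scale, and that between BASC and Club cells from -0.46 to 2.22, so differences of over 2-fold lie inside both intervals. It lies at chr1:64029447-64121491 on the minus strand (ENSMUSG00000025959).

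Klf5, which drives proliferation and differentiation in many epithelia, was the only member called in more than 1 comparison, higher in Club cells each time. Its normalised counts were 3184 and 3281 in Club cells, 1573 and 1448 in BASC and 1657 and 1171 in AT2 cells. Both Club samples were above the other 4, and BASC overlapped with AT2 cells. Club cells stood 2.14 times above BASC (log2 fold change of BASC against Club -1.10 ± 0.18 SE, limma, adjusted p = 0.0103) and 2.29 times above AT2 cells (-1.21 ± 0.18, adjusted p = 0.00417). The difference from BASC was lost without BASC replicate 1 (adjusted p = 0.0632) or BASC replicate 2 (0.0816), and without a variance trend both were lost (0.122 against BASC and 0.0727 against AT2 cells). The difference from AT2 cells held with each sample left out. BASC and AT2 cells differed by 0.12 on the log2 scale (95% interval -0.31 to 0.54). The comparisons of BASC and of AT2 cells with Club cells share the Club samples. Klf5 (ENSMUSG00000005148) lies at chr14:99298691-99313405 on the plus strand.

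Klf15, a glucocorticoid-induced factor of amino acid and lipid metabolism, had 914 and 1721 normalised counts in Club cells, 522 and 716 in BASC and 597 and 735 in AT2 cells. Both Club samples were above the other 4, but the Club replicates differed 1.88-fold. The Club mean was 2.13 times that of BASC (log2 fold change of BASC against Club -1.04 ± 0.32 SE, adjusted p = 0.0908) and 1.98 times that of AT2 cells (-0.92 ± 0.32, adjusted p = 0.0966), and neither passed. Without Club replicate 1, the lower of the pair, the log2 fold changes of BASC and AT2 cells against Club cells became -1.49 and -1.38. Without Club replicate 2, the higher of the pair, they became -0.58 and -0.46. The difference from BASC passed with the filter at 50 (limma, adjusted p = 0.0489). Klf15 (ENSMUSG00000030087) lies at chr6:90462576-90475238 on the plus strand.

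Klf3, the repressor that binds C-terminal binding proteins, showed the same order with a smaller difference. Its normalised counts were 1956 and 1997 in Club cells, 1529 and 1016 in BASC and 1602 and 1071 in AT2 cells. The Club samples agreed closely and were above the rest, whose replicates differed about as much as the groups did. The Club mean was 1.55 times that of BASC (log2 fold change of BASC against Club -0.66 ± 0.25 SE, adjusted p = 0.158) and 1.48 times that of AT2 cells (-0.59 ± 0.25, adjusted p = 0.165), and neither passed. The gene (ENSMUSG00000029178) lies at chr5:64803388-64832901 on the plus strand.

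The Sin3-binding repressors among the 10 members, Klf9, Klf10 and Klf13, gave no difference beyond the replicate spread. Klf9, induced by thyroid and steroid hormones, had 1760 and 2021 normalised counts in BASC, 1519 and 2393 in AT2 cells and 1655 and 1960 in Club cells. Klf13 had 1054 and 1656, 1359 and 1465, and 1087 and 1500 in the same order. Klf10, an immediate target of TGF-beta, had 943 and 566, 405 and 700, and 632 and 651. In all 3 genes the samples of every pair of groups overlapped. The intervals set bounds on what could have been missed. For Klf9 the 95% interval of BASC against AT2 cells ran from -0.55 to 0.52 on the log2 scale and that against Club cells from -0.47 to 0.60. For Klf13 they ran from -0.68 to 0.49 and from -0.54 to 0.64, and for Klf10 from -0.33 to 1.24 and from -0.59 to 0.97. AT2 and Club cells differed by 0.08 (Klf9, interval -0.45 to 0.61), 0.14 (Klf13, -0.44 to 0.73) and -0.27 (Klf10, -1.05 to 0.51), and the sign of all 3 Klf9 differences, and of Klf13 in BASC against Club cells, changed with the scaling. Klf13 overlaps the gene E030018B13Rik on the other strand, which had at most 75 normalised counts in any sample. Klf9 (ENSMUSG00000033863) lies at chr19:23141226-23166911 on the plus strand, Klf10 (ENSMUSG00000037465) at chr15:38294413-38300707 and Klf13 (ENSMUSG00000052040) at chr7:63886351-63938915, both on the minus strand.

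**Figure D1:**
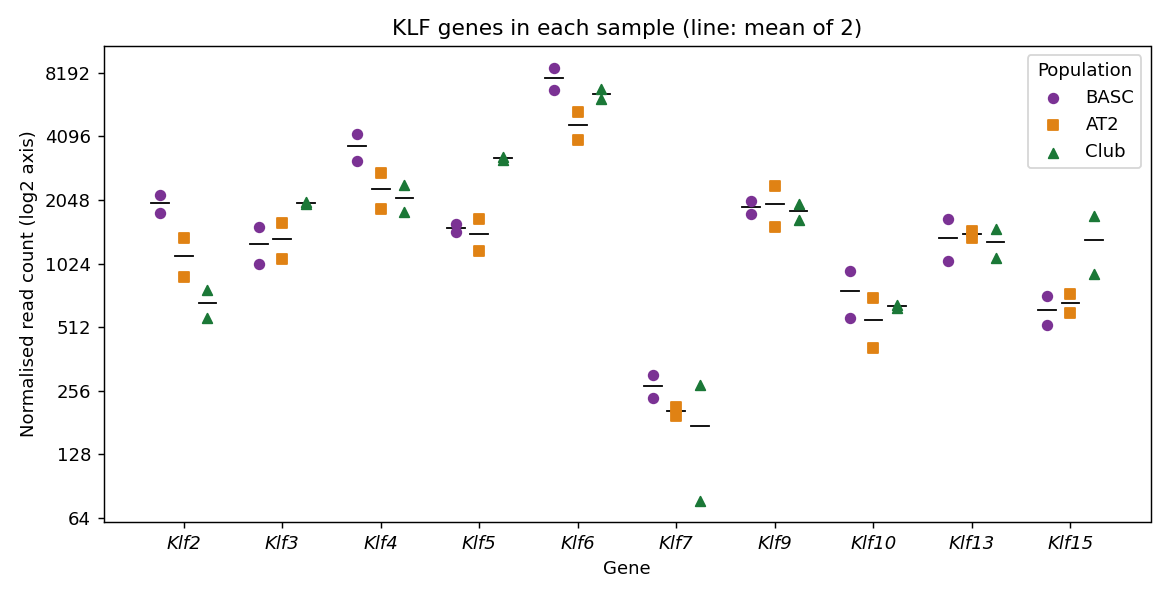
Normalised read counts of the 10 KLF genes (log axis) in each of the 6 samples, with the mean of 2 samples as a line. Klf2 steps down from BASC to AT2 to Club cells, Klf5 is higher in Club cells than in the other populations, and Klf9, Klf10 and Klf13 overlap between all of them.

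Counted over the members, 0 of 10 were called between BASC and AT2 cells by limma, where 0.632% of all tested genes were. At an unadjusted p under 0.05 there were 3 members, Klf2, Klf4 and Klf6, all higher in BASC, against 7.09% of genes higher. Between BASC and Club cells 1 member, Klf2, was higher and 1, Klf5, lower, where 5.77% of genes were called higher and 5.42% lower. Between AT2 and Club cells 0 of 10 were called higher and 1, Klf5, lower in AT2 cells, where 8.42% of genes were higher and 9.71% lower. Against the midpoint of the other populations 0 of 10 were called, with 1.61% of genes called, and 4 had an unadjusted p under 0.05, of which 3 were higher in BASC, where 15.1% of genes had such a p. With 10 members, 1 or 2 calls do not set them apart from these shares. The median log2 fold change of the members was 0.25 for BASC against AT2 cells, where that of all genes was 0, 0.13 for BASC against Club cells, where that of all genes was -0.10, and -0.09 for AT2 against Club cells, where it was -0.10.

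The same counts by sample range gave 4 members with both BASC samples above both AT2 samples, Klf2, Klf4, Klf6 and Klf7, and 0 below, where 18.3% of genes were above and 18.9% below. Against Club cells, Klf2 and Klf4 were above and Klf3, Klf5 and Klf15 below in BASC, where 23.9% of genes were above and 30.1% below. Of AT2 cells against Club cells, Klf2 was above and Klf3, Klf5, Klf6 and Klf15 were below, where the shares were 26.0% and 32.0%.

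**Figure D2:**
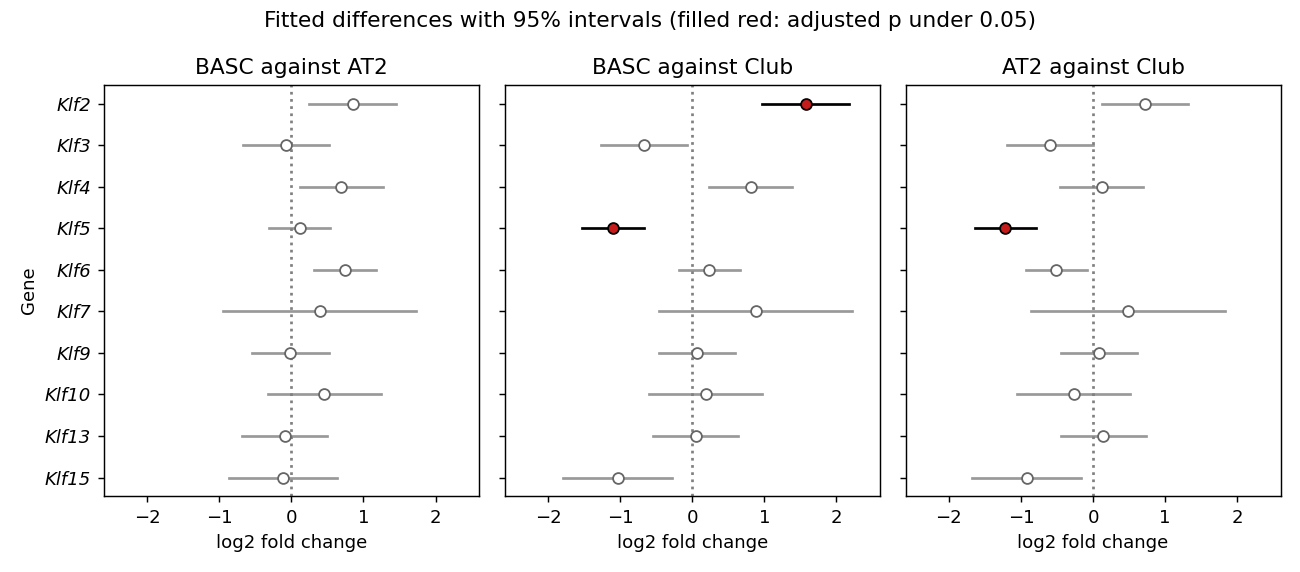
Fitted log2 fold changes of the 10 KLF genes with 95% intervals (limma, 2 samples per group) for each pair of populations. Against Club cells, Klf2 lies highest in BASC (1.57) and Klf5 lowest (-1.10), and the intervals of Klf9, Klf10 and Klf13 include 0 in each comparison.

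To compare levels between genes, normalised counts were divided by the exon length of each gene. On this scale Klf6, Klf4 and Klf2 led in BASC, with means of 1763, 1211 and 1070 normalised counts per kb, while Klf9 (393) and Klf5 (290.4) followed. Klf4 and Klf2 overlapped in their samples, and so did Klf15 with Klf10 and Klf10 with Klf13 (222, 181 and 179.9). Klf3 and Klf7 were last, at 113 and 33.1. AT2 cells had the same 6 genes in the same order by mean, from 1055 for Klf6 through 756, 604, 406 and 272 to 239 for Klf15, but each neighbour of these overlapped with the next. In Club cells Klf6 stood at 1484, apart from the rest, and Klf4 at 689. Klf5 came next there with 622, then Klf15 with 472, Klf9 with 375 and Klf2 with 362, with neighbours from Klf4 to Klf2 overlapping. Klf2 thus ranked 3 in BASC and AT2 cells and 6 in Club cells.

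**Figure D3:**
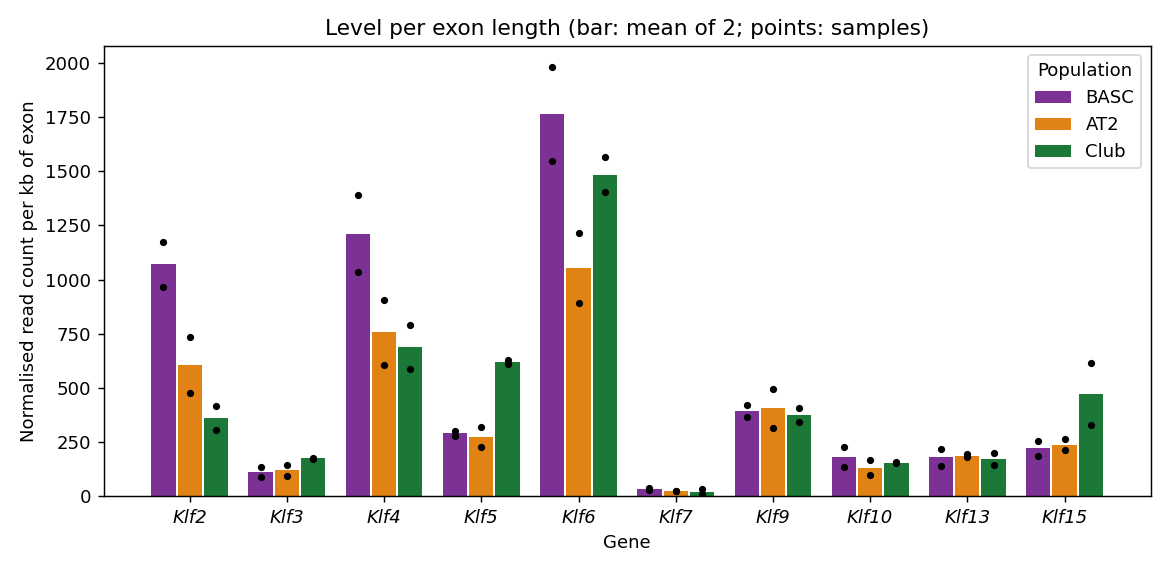
Mean normalised count per kb of exon (bars, linear axis from 0) of the 10 KLF genes in each population, with the samples as points. Klf6 is highest and Klf7 lowest in all 3 populations, and Klf5 and Klf15 stand higher in the Club order than in the others.

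The members differed in how they varied over the 6 samples. The distance between genes was the root mean square difference of their centred log2 values. Klf9 and Klf13 were the closest pair, at 0.217, then Klf3 and Klf5 at 0.294, and Klf4 and Klf6 at 0.333, while Klf2 and Klf5 were farthest apart at 1.18. Among 8964 other protein-coding genes with a mean of at least 100, those closest to Klf2 were Mrps9 (distance 0.123), a mitochondrial ribosomal protein, Thbs1 (0.151), the secreted glycoprotein thrombospondin 1, and Sh3d19 (0.212). Thbs1 had 2843 and 2977 normalised counts in BASC, 1635 and 1884 in AT2 cells and 803 and 1169 in Club cells. Closest to Klf5 were Naa40 (0.100), an acetyltransferase of histone amino termini, Epas1 (0.101), the hypoxia-inducible factor HIF-2 alpha, and Ncoa3 (0.120), a nuclear receptor coactivator. Epas1 had 35294 and 32365 normalised counts in Club cells and between 14317 and 16966 in the others.

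Of the other KLF and SP genes, 11 of the 17 listed had a row and 10 were tested. None was called between BASC and AT2 cells by limma, where 0.632% of all genes were. At an unadjusted p under 0.05, 1 was higher in BASC, against 7.09% of all genes. In BASC against Club cells 3 were higher and 0 lower, where 5.77% and 5.42% of all genes were. In AT2 against Club cells 3 were higher and 1 lower, where 8.42% and 9.71% of all genes were. The median log2 fold change of the 10 genes was -0.25, 0.51 and 0.74 in the same order, where those of all genes were 0, -0.10 and -0.10.

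Sp5, a target of Wnt signalling, had 117 and 56 normalised counts in BASC, 257 and 263 in AT2 cells and 0 in both Club samples. BASC was at least 31.0-fold above Club cells (adjusted p = 0.00453) and AT2 cells at least 93.0-fold (adjusted p = 0.000957), with Club cells set at 3 reads per sample, and both passed under all 17 alternatives. The AT2 mean was 3.01 times that of BASC, which did not pass (adjusted p = 0.48). Klf11, a Sin3-binding repressor related to Klf10, had 699 and 690 in BASC, 646 and 692 in AT2 cells and 289 and 320 in Club cells. BASC was 2.28-fold above Club cells (1.19 ± 0.19, adjusted p = 0.00935) and AT2 cells 2.20-fold (1.13 ± 0.19, adjusted p = 0.0071). These calls were lost without Club replicate 1 (adjusted p = 0.0762 and 0.0613) and without a variance trend (0.0641 and 0.0517), and the first also without BASC replicate 1 or 2 (0.0522 for each).

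Sp3, a ubiquitous GC-box binding factor, had 1527 and 1484 normalised counts in BASC, 1736 and 1583 in AT2 cells and 838 and 1061 in Club cells. AT2 cells were 1.75-fold above Club cells (0.81 ± 0.16, adjusted p = 0.0148), a call lost without AT2 replicate 1 (0.0724), without Club replicate 1 (0.12) and without a trend (0.134). BASC were 1.59-fold above Club cells (0.67 ± 0.16, adjusted p = 0.0419), a call that held in 6 of 17 alternatives and was lost with any of the 6 samples left out (0.0602 to 0.335). Klf12, a repressor that binds C-terminal binding proteins, had 86 and 82 in Club cells, 17 and 74 in BASC and 1 and 3 in AT2 cells, values at or under the limit of 3 reads. It was lower in AT2 than in Club cells (adjusted p = 0.0208), a call lost without AT2 replicate 1 (0.0669), Club replicate 1 (0.147) or Club replicate 2 (0.139). The relatives Sp1 (2316 and 2227 in BASC, 2079 and 1663 in AT2 cells, 1761 and 1878 in Club cells) and Klf16 (247 and 244, 344 and 276, 186 and 201) did not pass in any comparison.

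**Figure D4:**
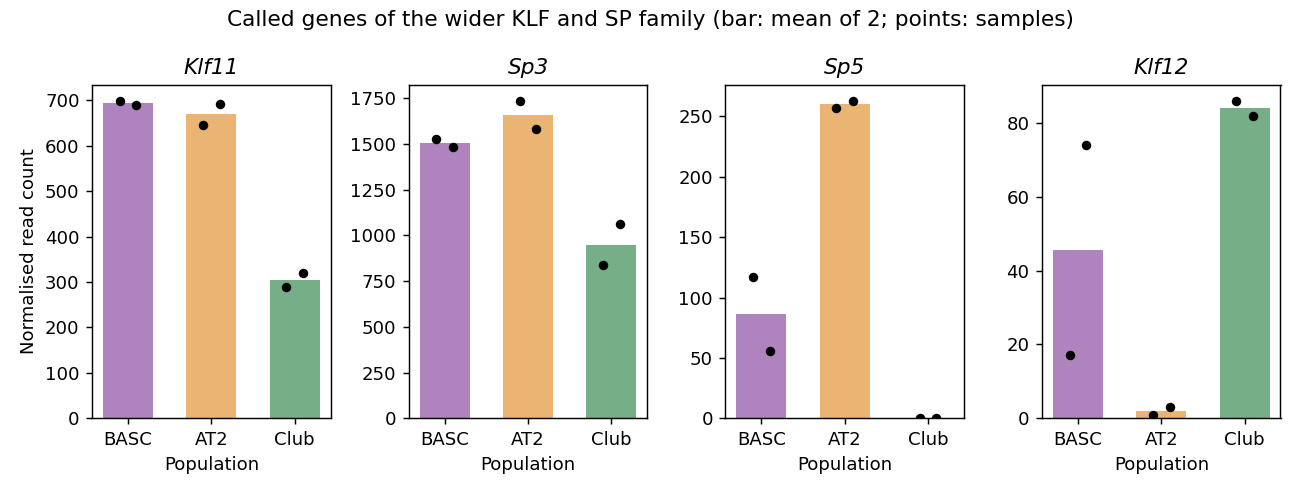
Normalised read counts in each sample of the KLF and SP genes outside the 10 members that were called in at least 1 comparison: Klf11, Klf12, Sp3 and Sp5. Klf11, Sp3 and Sp5 are lower in Club cells than in BASC and AT2 cells, Sp5 is at 0 in both Club samples, and Klf12 is at 1 and 3 in AT2 cells.

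Most genes known to be induced quickly by stimuli and by tissue dissociation had higher values in BASC, the direction of Klf2, Klf4 and Klf6. The 21 genes on this list summed to 112570 and 125174 normalised counts in BASC, 73410 and 94632 in AT2 cells and 79879 and 80640 in Club cells. The BASC sums were above all others. In BASC against AT2 cells 18 of 21 had a positive log2 fold change with a median of 0.47. The exceptions were Fosl1, Socs3 and Hspa1a. Fosl1 was lowest in BASC, with 16 and 13 normalised counts against 72 and 32 in AT2 cells and 56 and 64 in Club cells. By limma 9 of the 21 were higher at an unadjusted p under 0.05, and 1 was called. Of all genes 7.09% were higher at that p and 0.632% were called, with a median of 0. Against Club cells 19 were positive with a median of 0.43 and 4 were called higher. In AT2 against Club cells the median was 0.03, with 3 called higher and 1 lower. The medians of all genes were -0.10 in both. Their shares were 5.77% called higher in BASC, and 8.42% higher and 9.71% lower in AT2 cells. The part of this list's level in the higher Klf2, Klf4 and Klf6 of BASC was not tested.

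The called gene against AT2 cells was Egr1, a zinc-finger factor of growth and stress responses, with 10021 and 9739 normalised counts in BASC, 4824 and 5121 in AT2 cells and 3984 and 4517 in Club cells. BASC was 1.99-fold above AT2 cells (0.99 ± 0.11, adjusted p = 0.0141) and 2.32-fold above Club cells (1.22 ± 0.11, adjusted p = 0.000668). The difference from AT2 cells was lost without any 1 of the 4 BASC and AT2 samples (adjusted p = 0.174, 0.24, 0.0626 and 0.0564) and without a trend (0.25), and that from Club cells only without a trend (0.0623). Against the midpoint, Egr1 was higher by 1.11 (adjusted p = 0.0029), which was lost without BASC replicate 1 (0.135), BASC replicate 2 (0.122) or a trend (0.104). Against Club cells the AP-1 genes Fosb (0.82, adjusted p = 0.019, 1.78-fold), Junb (0.81, 0.0221) and Jund (0.56, 0.0303) were also called. Fosb was lost without BASC replicate 2 (0.11), and Junb without BASC replicate 1 (0.101), BASC replicate 2 (0.128) or Club replicate 2 (0.0704). Jund was lost without either BASC sample (0.111 and 0.106) or either Club sample (0.177 and 0.142), and all 3 were lost without a trend. In AT2 against Club cells Socs3 (adjusted p = 0.0339), Dusp1 (0.0484) and Jund (0.0338) were called higher and Nr4a1 (0.0459) lower, and each call was lost without any 1 of 5 samples. Socs3 and Nr4a1 passed only when Club replicate 2 was the sample left out (0.0588 to 0.171 and 0.0729 to 0.309 without another), and Dusp1 and Jund only when it was AT2 replicate 1 (0.0752 to 0.186 and 0.0567 to 0.183).

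**Figure D5:**
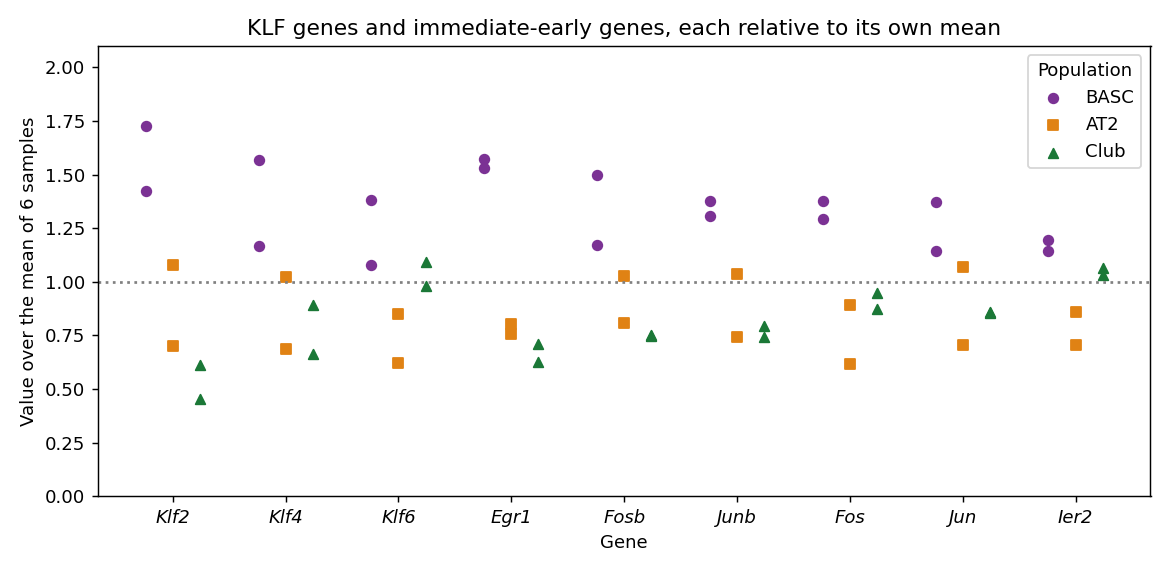
Value of each sample divided by the gene's mean over the 6 samples, for Klf2, Klf4, Klf6 and rapidly induced genes. The latter are Egr1, Fosb, Junb, Fos, Jun and Ier2, the last 3 of which were chosen after their values were seen. The BASC samples are above the AT2 and Club samples for each plotted gene except Klf6, where BASC and Club cells overlap. Not every gene of the list behaved so: among those not plotted, Fosl1 was lowest in BASC and Dusp1 overlapped between BASC and AT2 cells.

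Endothelial markers, measured because Klf2 is known from endothelium, were low apart from Kdr. Of 12 such genes 7 had a row, and without Kdr they summed to 75 and 156 normalised counts in BASC, 75 and 83 in AT2 cells and 74 and 63 in Club cells. Pecam1, which encodes the depleted CD31, stood between 3 and 27 in all samples. Plvap was at 0 in 4 samples, at 2 in Club replicate 2 and at 50 in BASC replicate 2, and Tie1 was at 0 in the first replicate of each group and reached 8 at most. Single genes differed between the groups in both directions. Kdr, the VEGF receptor 2 gene, had 5510 and 5892 in Club cells, 689 and 517 in BASC and 1 and 0 in AT2 cells. Vwf, von Willebrand factor, had the same order at a lower level, with 63 and 32 in Club cells, 15 and 2 in BASC and 0 in both AT2 samples. Egfl7 was lowest in Club cells, with 28 and 52 in BASC, 15 and 49 in AT2 cells and 2 and 4 in Club cells. Of the 5 tested genes, 1 was called higher in BASC than in AT2 cells, where 0.632% of all genes were called in either direction. Against Club cells 1 was lower in BASC and 2 were lower in AT2 cells, where 5.42% and 9.71% of all genes were. The part of these markers in the level of Klf2 was not tested. Immune markers, of which 3 of 12 had a row, summed to between 167 and 367 in all samples, and mesenchymal markers, 6 of 9, to between 13 and 240.

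Of the pathways known to act on KLF genes, the kinases and MEF2 factors of the ERK5 pathway, which induces Klf2 and Klf4, gave 1 call. None of the 5 tested genes was called by limma in BASC against AT2 cells or in BASC against Club cells. In AT2 against Club cells 1 was called higher, where 8.42% of all genes were. Mapk7, the ERK5 gene itself, had 143 and 182 normalised counts in BASC, 320 and 414 in AT2 cells and 131 and 166 in Club cells. It was higher in AT2 than in Club cells (log2 fold change 1.30 ± 0.34 SE, adjusted p = 0.0364). The call was lost without AT2 replicate 1 (0.0716), AT2 replicate 2 (0.146), Club replicate 1 (0.241) or Club replicate 2 (0.118).

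The glucocorticoid list, which holds the receptor and its early response genes and bears on Klf9 and Klf15, gave its calls against Club cells. Of 9 tested genes, 0 were called between BASC and AT2 cells (limma, 0 at an unadjusted p under 0.05), 3 were higher and 1 lower in BASC than in Club cells, and 4 were higher and 1 lower in AT2 than in Club cells. The medians were -0.25, 0.53 and 0.84, where those of all genes were 0, -0.10 and -0.10. Of all genes, 5.77% were called higher and 5.42% lower in BASC than in Club cells. In AT2 against Club cells these shares were 8.42% and 9.71%. Nr3c1, the receptor, had 1774 and 1682 normalised counts in BASC, 1964 and 2161 in AT2 cells and 822 and 1048 in Club cells. AT2 cells were 2.21-fold above Club cells (adjusted p = 0.00332) and BASC 1.85-fold (adjusted p = 0.0151), the latter lost without BASC replicate 1 (0.085), BASC replicate 2 (0.076) or Club replicate 1 (0.104). Errfi1, a feedback inhibitor of EGF receptor signalling, had 8946 and 10215 in BASC, 9977 and 13072 in AT2 cells and 3573 and 2832 in Club cells. It was 2.99-fold above Club cells in BASC (adjusted p = 0.00163) and 3.60-fold in AT2 cells (adjusted p = 0.000476). The call in BASC was lost without a variance trend (limma, adjusted p = 0.0568).

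Cebpd, a C/EBP transcription factor, followed Nr3c1, with 740 and 722 normalised counts in Club cells and between 1238 and 1477 elsewhere (adjusted p = 0.0133 for BASC and 0.00775 for AT2 cells). The call in BASC was lost without BASC replicate 2 (0.0687), Club replicate 1 (0.0716) or Club replicate 2 (0.0791). Sgk1, a kinase that regulates ion transport, went the other way. It had 826 and 671 in Club cells, 264 and 237 in BASC and 223 and 392 in AT2 cells. Club cells were 2.99-fold above BASC (adjusted p = 0.0218) and 2.43-fold above AT2 cells (adjusted p = 0.0272). The difference from BASC was lost without any 1 of the 4 BASC and Club samples (0.0606 to 0.144), and that from AT2 cells without any 1 sample but AT2 replicate 2 (0.0553 to 0.177). Of the members tied to this pathway, Klf15 had its higher values in Club cells, without a call, and Klf9 overlapped between groups. The part of this pathway in the levels of Klf9 and Klf15 was not tested.

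The TGF-beta list, whose signal is known to induce Klf10, had 11 tested genes. None was called between BASC and AT2 cells by limma, where 0.632% of all genes were. At an unadjusted p under 0.05 there were 3, of which 2 were higher in BASC, against 7.09% of all genes. In BASC against Club cells 2 were called higher, where 5.77% of all genes were. In AT2 against Club cells 3 were higher and 1 lower, where the shares of all genes were 8.42% and 9.71%. Tgfb1 had 322 and 464 normalised counts in AT2 cells, 202 and 91 in BASC and 24 and 27 in Club cells. It was 15.4-fold higher in AT2 than in Club cells (3.87 on the log2 scale, adjusted p = 0.00289), which held under all 17 alternatives. The difference of BASC from Club cells (2.37, adjusted p = 0.0321) was lost without BASC replicate 1 (0.119), AT2 replicate 1 (0.0557), AT2 replicate 2 (0.0608), Club replicate 1 (0.11) or Club replicate 2 (0.0812).

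The ligand Tgfb3 had 222 and 363 normalised counts in BASC, 227 and 312 in AT2 cells and 109 and 56 in Club cells, higher than in Club cells in BASC (adjusted p = 0.0451) and AT2 cells (adjusted p = 0.0384). These calls were lost without any 1 sample but Club replicate 1 (0.0682 to 0.233 and 0.0562 to 0.201). Tgfb2 was lower in AT2 cells, at 15 and 0, than in Club cells, at 167 and 324 (adjusted p = 0.0227), which was lost without BASC replicate 1 (0.0554), BASC replicate 2 (0.0561), Club replicate 1 (0.0558) or Club replicate 2 (0.112). Smad2, a signal transducer of the pathway, had 936 and 1003 in AT2 cells and 557 and 516 in Club cells (adjusted p = 0.0167), and this call was lost without AT2 replicate 1 (0.0524), AT2 replicate 2 (0.073), Club replicate 1 (0.0806) or Club replicate 2 (0.123).

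The proteins known to work with KLF factors gave 1 call among their genes. Of 12 corepressors, 0 were called in BASC against AT2 cells and 0 in BASC against Club cells by limma. Where 9.71% of all genes were called lower in AT2 than in Club cells, 1 corepressor was. This gene was Sin3b, a Sin3 scaffold, with 740 and 816 normalised counts in AT2 cells, 1042 and 1000 in BASC and 1334 and 1536 in Club cells (-0.88 ± 0.16, adjusted p = 0.0091). The call was lost without Club replicate 2 (0.0982). None of the 5 coactivators was called between any pair of populations, and none of the 10 ubiquitin ligases and proteases of KLF turnover was. Of all genes 0.632% were called in BASC against AT2 cells. Against Club cells 5.77% were higher and 5.42% lower in BASC, and 8.42% higher and 9.71% lower in AT2 cells.

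Genes known as KLF targets gave calls against Club cells in both directions. Of 21 listed, 17 had a row and 15 were tested. By limma 0 were called between BASC and AT2 cells, where 0.632% of all genes were. At an unadjusted p under 0.05 there were 4, of which 2 were higher in BASC, against 7.09% of all genes. In BASC 2 were called higher and 4 lower than in Club cells, and in AT2 cells 4 higher and 3 lower. The medians were 0, -0.16 and -0.24, where those of all genes were 0, -0.10 and -0.10. Of all genes, 5.77% were called higher and 5.42% lower in BASC than in Club cells. In AT2 against Club cells these shares were 8.42% and 9.71%. Among called targets whose higher group averaged 100 or more, the largest difference was in Krt19, a keratin of simple epithelia, with 5234 and 4575 normalised counts in Club cells, 845 and 784 in BASC and 401 and 271 in AT2 cells. Club cells were 6.02-fold above BASC (adjusted p = 0.00043) and 14.6-fold above AT2 cells (adjusted p = 3.65e-05).

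Cdkn1a, the p21 cell cycle inhibitor that Klf4 and Klf6 are known to induce, had 375 and 605 normalised counts in BASC, 621 and 630 in AT2 cells and 112 and 78 in Club cells. It was 5.16-fold above Club cells in BASC (adjusted p = 0.00521) and 6.58-fold in AT2 cells (adjusted p = 0.00161). Ccnd1, cyclin D1, is a gene that Klf5 is known to activate and Klf4 to repress. It had 4014 and 4256 in Club cells, 2161 and 2180 in BASC and 1661 and 1904 in AT2 cells. Club cells were 2.32-fold above AT2 cells (limma, adjusted p = 0.000765) and 1.91-fold above BASC (adjusted p = 0.00432). The alternatives were not examined for the difference of Ccnd1 from BASC. The calls of Krt19 and Cdkn1a in both comparisons and of Ccnd1 against AT2 cells held under all 17 alternatives.

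Txnip, an inhibitor of thioredoxin and glucose uptake, was the only target called in BASC against the midpoint. It had 7229 and 8115 normalised counts in BASC, 6218 and 5060 in AT2 cells and 3039 and 3340 in Club cells, the order of the groups in Klf2. BASC was 2.41-fold above Club cells (adjusted p = 0.00163) and above the midpoint by 0.86 on the log2 scale (adjusted p = 0.0195). The second was lost without BASC replicate 1 (0.151), BASC replicate 2 (0.216) or AT2 replicate 2 (0.058). Lgals3, galectin 3, was lower in BASC, at 76 and 80, than in Club cells, at 342 and 252 (adjusted p = 0.0261), a call lost without any 1 of these 4 samples (0.0896 to 0.242). Gpt, alanine aminotransferase, which Klf15 is known to induce, had 1181 and 1610 in AT2 cells and 630 and 766 in Club cells (limma, adjusted p = 0.029). This call was lost without AT2 replicate 2 (log2 fold change 0.76) or Club replicate 1 (0.85). Klf15 had its higher values in Club cells, without a call, and its part in the level of Gpt was not tested.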

How the data were processed

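RNA of 6 sorted samples, 2 per population, was sequenced with a stranded total RNA kit from 100 pg of input, per the labels' protocols. The submitters' processing notes name FastQC, STAR 2.4.0a for alignment, featureCounts 1.4.5-p1 of the Subread package for counting, and mm10 (GRCm38) as the genome. The annotation release, the use of strand and the way values were normalised were not given in the sources used here. Each gene and sample has 1 signal in the deposited table, a normalised read count that the authors scaled and rounded to whole numbers. The spacing of low values gave 1 read as worth 0.764 to 1.34 units, from which the reads per sample were estimated. This spacing matched least well in Club replicate 2, with a correlation of 0.594 against 0.841 to 0.968 in the other samples. Since whole reads could not be recovered exactly, count models were not run. The opposite-strand partners of members could share reads if strand was not used.

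Values were analysed as log2(value + 1), with genes kept at 10 or more in at least 2 samples. All 6 samples were fitted together in limma 3.58.1 under R 4.3.3 with a trended variance, 3 residual and 4.2 prior degrees of freedom, 2-sided tests and Benjamini-Hochberg adjustment over all genes tested. A call is an adjusted p under 0.05. Fold changes are ratios of group means, and log2 values and SE are fitted, with 2 samples per group. The fit was tried on simulated data with independent noise and a spread set by expression level alone. That trial did not cover a spread particular to a gene or shared between same-numbered samples. The 4 comparisons share samples. Exon lengths came from GENCODE M21, where 6 of 10 members had the deposited coordinates, and coordinates are those deposited. Named genes were all members, family genes that were called, and in other lists up to 4 called genes per comparison with the largest fitted change and a group mean of 100 or more. For each called member the 3 closest genes were named. Alternatives were other pseudocounts, filters, scalings, variance models, a replicate block and leaving out each sample. Members and lists were chosen with earlier results of these data known.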

Additional observations from a re-analysis of the deposited data

How the results depend on the processing

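The number of genes called between BASC and AT2 cells, 112, became 176 with a pseudocount of 10, 265 with the filter at 50, 188 with protein-coding genes only, 196 with robust variance, and 3 to 112 with a sample left out. Against Club cells, 1983 for BASC became 1183 and 3212 for AT2 cells became 2028 without a variance trend, and 853 to 1888 and 1539 to 3291 with a sample left out. The midpoint count of 286 became 455 with the filter at 50 and 4 to 278 with a sample left out. Of the KLF members, the 2 called between BASC and Club cells became 4 with the filter at 50, 0 without a trend and 0 to 3 with a sample left out. The 1 called between AT2 and Club cells became 2 with quantile normalization, 0 without a trend and 1 to 2 with a sample left out. The 0 called against the midpoint became 1, Klf2, with a pseudocount of 10, the filter at 50, protein-coding genes, quantile normalization or robust variance, and 0 to 1 with a sample left out. The cause was not tested.

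Over all tested genes, same-numbered samples did not deviate together (correlations of 0.00600, 0.00846 and 0.0118). Such a correlation cannot exclude a shared animal or day, or an effect on some genes, and the labels do not say whether the numbers pair samples. Klf2, Klf6, Klf9, Klf13 and Klf15 were higher in replicate 2 in every group. No member was higher in replicate 1 in every group. The shares of all genes with either pattern were not worked out, so this does not set the members apart. With the replicate number as a block, members called were 1 between BASC and AT2 cells (Klf6, adjusted p = 0.0456), 3 between BASC and Club cells, 4 between AT2 and Club cells and 1 against the midpoint, and genes called were 120, 1861, 3045 and 280.

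Of the 51 alternative values of the 3 called member differences, 44 stayed called and 7 did not, with no change of sign. Of the 619 of differences not called, 18 became called and 37 changed sign, none of which was called. With quantile normalization and rescaling to the protein-coding total, AT2 against Club cells became -0.017 and -0.0015 for Klf4 and -0.032 and -0.042 for Klf9, BASC against AT2 cells 0.026 and 0.034 for Klf9, and BASC against Club cells -0.0065 and -0.0080 for Klf9, while Klf13 became -0.025 with rescaling. Rescaling moved the median of all genes in AT2 against Club cells from -0.10 to -0.22. With a sample left out, AT2 against Club cells ran from -0.66 to 0.13 for Klf10, -0.088 to 0.38 for Klf13, -0.16 to 0.41 for Klf4, -0.42 to 1.39 for Klf7 and -0.25 to 0.41 for Klf9. BASC against AT2 cells ran from -0.42 to 0.23 for Klf13, -0.34 to 0.11 for Klf15, -0.37 to 0.22 for Klf3, -0.13 to 0.37 for Klf5 and -0.34 to 0.31 for Klf9. BASC against Club cells ran from -0.18 to 0.56 for Klf10, -0.28 to 0.37 for Klf13, -0.024 to 1.78 for Klf7 and -0.056 to 0.19 for Klf9. Against the midpoint the ranges were -0.046 to 0.69 for Klf10, -0.35 to 0.30 for Klf13 and -0.14 to 0.19 for Klf9. Of the 797 alternative values of other named genes, 628 stayed called and 169 did not. Without a variance trend, Errfi1, Tef, Per3, Tgfb1, Lgals3 and Txnip were no longer called in BASC against Club cells. In AT2 against Club cells the same held for Sin3b, Mapk7, Per2, Tgfb2, Smad2, Gpt, Socs3, Nr4a1, Dusp1 and Jund. Sgk1, Nr3c1, Cebpd and Tgfb3 lost both of these calls, and Txnip also its call against the midpoint. Where a sample is left out, the lone sample of its group is assumed to vary like the other groups. Depth limits genes near 3 reads, here Klf12 in AT2 cells and Sp5 in Club cells.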

Other observations

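Clock genes drive daily rhythms in most tissues, and Klf9, Klf10 and Klf15 are known as outputs of the clock. Of 13 tested genes, 0 were called in BASC against AT2 cells by limma, where 0.632% of all genes were. At an unadjusted p under 0.05, 2 were higher in BASC, against 7.09% of all genes. In BASC 2 were lower than in Club cells and in AT2 cells 3 were, where 5.42% and 9.71% of all genes were lower. The medians were 0.22, -0.29 and -0.57 on the log2 scale, where those of all genes were 0, -0.10 and -0.10. Tef, a D-box binding activator, had 3378 and 4933 normalised counts in Club cells, 744 and 941 in BASC and 428 and 788 in AT2 cells. Club cells were 6.83-fold above AT2 cells (-2.81 ± 0.32 for AT2 minus Club, adjusted p = 0.00118), which held under all 17 alternatives. The difference from BASC (-2.29 ± 0.32, adjusted p = 0.00485) was lost without BASC replicate 1 (0.063).

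Per3, a period gene, had 1986 and 1908 normalised counts in Club cells, 970 and 1185 in BASC and 608 and 804 in AT2 cells. It was 2.76-fold higher in Club than in AT2 cells (adjusted p = 0.0022), which held under all 17 alternatives. The difference from BASC (-0.86, adjusted p = 0.0311) was lost without any 1 of the 4 BASC and Club samples (0.0765 to 0.175). Per2 had 1897 and 2215 in Club cells and 434 and 798 in AT2 cells (adjusted p = 0.0276), lost without AT2 replicate 1 (0.143) or Club replicate 2 (0.0683). Per1 had 2766 and 2995 in Club cells, above 1896 and 2592 in BASC and within the 2294 and 3130 of AT2 cells, and Nr1d1 had 2714 and 3030 in Club cells, overlapping with 2564 and 2837 in BASC. Neither was called in these comparisons. In AT2 against Club cells 3 of the 13 genes had a positive log2 fold change: Arntl, Clock and Npas2. Arntl had 735 and 595 in AT2 cells and 304 and 161 in Club cells, and Clock 2159 and 1563 against 1256 and 1302. None of these was called (limma, adjusted p = 0.0603 for Arntl, 0.0898 for Clock and 0.375 for Npas2). The hour of collection is not given in the sources used here, and the part of these genes in the levels of Klf9, Klf10 and Klf15 was not tested.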
